A study of Mus musculus with 6 samples.

Results

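The genes described here encode 10 neuropeptides of the hypothalamus: Crh, Pmch, Hcrt, Agrp, Cartpt, Avp, Oxt, Trh, Gal and Tac2. They were chosen by name, and every probe set annotated to exactly 1 of these symbols was taken. This gave 9 probe sets, 1 for each of 9 genes, among 45037 tested. Agrp, the antagonist of melanocortin receptors, had no such probe set and was not analysed here. The samples were the brain without its cerebellum from 3 mice deficient in Gb5 (Gb5ko, replicates 1 to 3) and 3 wild-type mice (Gb5wt, replicates 4 to 6), with 1 array per sample. Gb5 is the G protein beta subunit encoded by Gnb5. The 3 samples per genotype are labelled as biological replications, from littermates matched for age and sex. The labels give neither the deleted allele and strain nor the age and sex of an animal. How the brain was cut, and so how much hypothalamus or pituitary a sample held, is not recorded either.

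Hypothalamic peptides are made as large precursors by small groups of neurons, cut into active peptides in secretory granules and released either into the blood or onto other neurons. Magnocellular neurons of the paraventricular and supraoptic nuclei make oxytocin or vasopressin. Other paraventricular neurons make the releasing hormones CRH and TRH, and neurons of the lateral hypothalamus make melanin-concentrating hormone or orexin. Because these neurons lie in a small region at the base of the brain, the share of that region in a sample affects how much of their RNA is measured. Several of the genes are also active elsewhere: Crh in cortical interneurons and the amygdala, Tac2 in the habenula and the extended amygdala, and Cartpt, Gal and Trh in many nuclei. In whole-tissue RNA, fewer cells of a type and less RNA per cell cannot be told apart.

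The Gnb5 probe set read from 3.00 to 3.67 in Gb5ko and from 8.79 to 9.30 in Gb5wt on the log2 scale, as their labels state. Over all probe sets, correlations between arrays ran from 0.989 to 0.996, and Gb5ko replicate 1 had the lowest mean correlation with the others, 0.992. The first principal component held 40.3% of the variance, and on it that array lay at 49.8, the other Gb5ko arrays at 5.82 and 8.47 and the Gb5wt arrays from -32.3 to -15.4. Each neuropeptide gene's difference is therefore given with and without it. Xist, the RNA that silences an X chromosome in female cells, was at 10.7, 8.31 and 10.6 in the Gb5ko arrays and at 4.96, 10.8 and 10.7 in the Gb5wt arrays. The Y-linked Eif2s3y was at 2.96, 11.3 and 6.97 in the Gb5ko arrays and at 11.3, 6.05 and 4.05 in the Gb5wt arrays. Both genes thus differed widely within each genotype, although the animals are labelled as matched for sex, and Gb5ko replicate 2 was high for both. Whether an array holds RNA of 1 animal was not tested.

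No neuropeptide gene passed the test between the genotypes, and for 6 of the 9 most of the variation lay between arrays of the same genotype. Such variation was also the larger part for most probe sets, whose median share between the genotypes was 22.9%. In limma, 0 of 9 had an adjusted p under 0.05, against 0.0266% of all probe sets (12 of 45037; 0.00444% higher and 0.0222% lower in Gb5ko), and the smallest adjusted p was 0.25, for Crh. At an unadjusted p under 0.05, 1 member was lower in Gb5ko (Crh) and 1 higher (Pmch). That is 2 of 9, against 14.4% of all probe sets, 8.09% higher and 6.33% lower. The difference, Gb5ko minus Gb5wt, was above 0 for 8 of 9 genes, against 59.9% of all 18193 genes. Its median was 0.12 on the log2 scale, against 0.03 over all probe sets. Without Gb5ko replicate 1 the difference was above 0 for only 4 of 9, against 10425 of the 18193 genes. The median was then -0.06, against 0.02 over all probe sets. With 3 arrays against 3, a gene's SE ran from 0.12 for Crh to 0.45 for Oxt, and the arrays limit the precision most for Oxt.

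**Figure D1:**
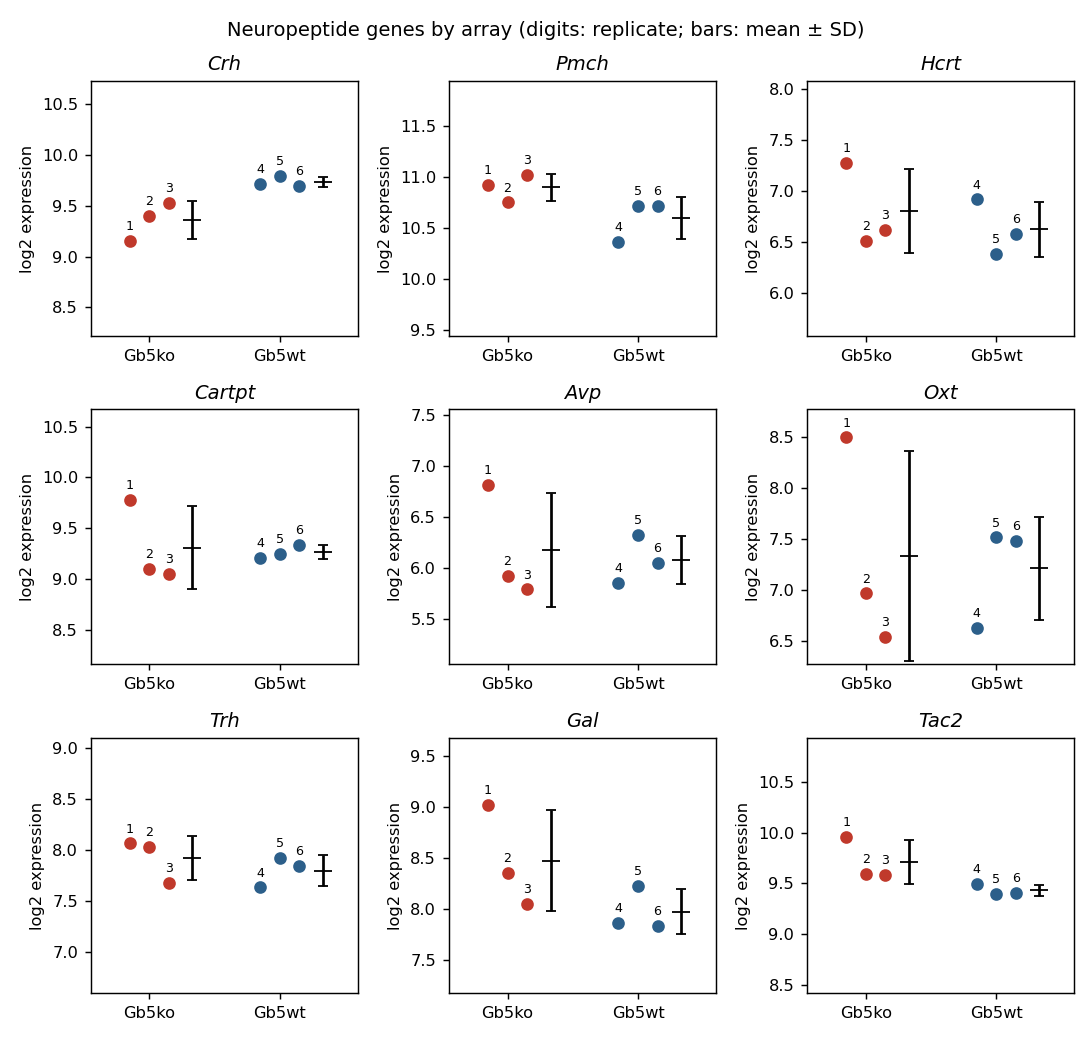
Log2 expression (y axis) of the 9 neuropeptide genes in each array, with Gb5ko in red left of Gb5wt in blue, replicate numbers above the points and the mean ± SD beside them. Every panel spans the same height. Gb5ko replicate 1 is the highest of the 6 arrays for 7 of the 9 genes and the lowest for Crh.

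Oxytocin and vasopressin are the nonapeptides of the magnocellular neurons, acting on milk ejection, parturition and social behaviour and on water balance. Oxt read 8.50, 6.97 and 6.54 in the Gb5ko arrays, against 6.63, 7.52 and 7.49 in the Gb5wt arrays. The highest value and the lowest were both Gb5ko, and the Gb5wt range lay inside the Gb5ko range. Oxt averaged 7.34 ± 1.03 in Gb5ko and 7.21 ± 0.50 in Gb5wt (SD, n = 3 each), a difference of 0.12 ± 0.45 (SE; 95% interval -0.89 to 1.14) with a limma adjusted p of 0.92. Without Gb5ko replicate 1 the difference was -0.46, and without Gb5wt replicate 4 it was -0.16.

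Avp read 6.82, 5.92 and 5.79 in the Gb5ko arrays, against 5.85, 6.32 and 6.05 in the Gb5wt arrays. The groups overlapped in the same way, with Gb5ko replicate 1 highest and Gb5ko replicate 3 lowest, and replicate 4 lowest among Gb5wt. The difference was 0.10 ± 0.25 (SE; 95% interval -0.47 to 0.67), with a limma adjusted p of 0.88. It was -0.22 without Gb5ko replicate 1 and -0.01 without Gb5wt replicate 4. The order of the 3 Gb5ko arrays was the same for Oxt and Avp, as was the order of the 3 Gb5wt arrays, and the spread of Oxt was larger.

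Oxt and Avp are neighbours on chromosome 2, with 0 genes listed between them in the RefSeq table, and are transcribed towards each other. Their promoters are shown because these genes had the largest spreads within a genotype and kept the same order of arrays. The sequences are the 200 bases before the RefSeq start site of GRCm38.p6, 5′ to 3′ on the gene's strand. Capitals mark the letters AGGTCA or their reverse complement TGACCT, a core motif of nuclear receptors, the E-box CACGTG, and CATAAA, a variant of the TATA box.
Oxt, chr2:130575969-130576168, plus strand: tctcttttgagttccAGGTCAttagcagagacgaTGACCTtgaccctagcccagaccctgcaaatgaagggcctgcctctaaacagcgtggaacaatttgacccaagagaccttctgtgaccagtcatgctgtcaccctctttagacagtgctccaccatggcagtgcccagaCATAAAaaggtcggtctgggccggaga
Avp, chr2:130582589-130582788, minus strand: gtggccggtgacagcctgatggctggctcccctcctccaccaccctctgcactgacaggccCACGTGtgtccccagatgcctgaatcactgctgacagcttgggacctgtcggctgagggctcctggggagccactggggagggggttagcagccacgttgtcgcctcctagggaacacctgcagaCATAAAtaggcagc

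Promoters of 8 of the 10 genes were in the RefSeq table, and the 250 bases before each start were searched on both strands. The letters AGGTCA were found at 185 and, on the other strand, at 166 bases before the Oxt start, and also before Trh. They occurred in 14.0% of the 32851 promoters of the same length. CACGTG lay 139 bases before the Avp start and occurred in 6.02% of promoters. CATAAA was found before both Oxt and Avp, at 27 and 14 bases, and in 10.8% of promoters. TATAAA was found before Pmch and Hcrt, and in 12.4% of promoters. These are matches of letters and show no binding.

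Cartpt encodes CART, a peptide precursor of arcuate and lateral hypothalamic neurons that is also made in many other regions and restrains feeding. It read 9.78, 9.10 and 9.05 in the Gb5ko arrays, against 9.21, 9.25 and 9.34 in the Gb5wt arrays. The 3 Gb5wt values lay within 0.13 of each other, 1 Gb5ko array stood above them and both others below. The difference was 0.04 ± 0.18 (SE; 95% interval -0.37 to 0.45) with a limma adjusted p of 0.94. Without Gb5ko replicate 1 it was -0.19 (95% interval -0.43 to 0.04), with the groups no longer overlapping and an adjusted p of 0.57.

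The Cartpt promoter is shown because it was the only one of the 8 to hold the full cAMP response element TGACGTCA, in capitals below, which occurred in 1.55% of promoters.
Cartpt, chr13:99900684-99900883, minus strand, GRCm38.p6: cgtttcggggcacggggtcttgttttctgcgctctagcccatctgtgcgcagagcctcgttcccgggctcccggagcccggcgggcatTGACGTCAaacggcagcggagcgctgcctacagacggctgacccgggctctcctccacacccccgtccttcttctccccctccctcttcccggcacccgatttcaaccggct

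Pmch and Hcrt mark separate neurons of the lateral hypothalamus. Pmch encodes the precursor of melanin-concentrating hormone, which promotes feeding and sleep. It read 10.92, 10.75 and 11.02 in the Gb5ko arrays, against 10.36, 10.71 and 10.71 in the Gb5wt arrays. The groups did not overlap, but the lowest Gb5ko array and the highest Gb5wt array were close together. Pmch averaged 10.89 ± 0.14 in Gb5ko and 10.59 ± 0.20 in Gb5wt (SD, n = 3 each). The difference was 0.30 ± 0.13 (SE; 95% interval 0.0036 to 0.60), 1.23-fold, with a limma adjusted p of 0.34 and an unadjusted p of 0.048. It stayed at 0.29 without Gb5ko replicate 1 and was 0.18 without Gb5wt replicate 4.

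Hcrt encodes the precursor of the orexins, which sustain wakefulness. It read 7.28, 6.51 and 6.62 in the Gb5ko arrays, against 6.92, 6.38 and 6.58 in the Gb5wt arrays. In each genotype 1 array stood above the rest, replicate 1 in Gb5ko and replicate 4 in Gb5wt, and the groups overlapped. The difference was 0.18 ± 0.21 (SE; 95% interval -0.30 to 0.65) with a limma adjusted p of 0.73, and -0.06 without Gb5ko replicate 1. Pmch and Hcrt did not follow each other: Gb5wt replicate 4 was the lowest Gb5wt array for Pmch and the highest for Hcrt.

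Crh encodes corticotropin-releasing hormone, which starts the pituitary-adrenal stress response, and was the 1 gene of the set with a lower mean in Gb5ko. It read 9.15, 9.40 and 9.52 in the Gb5ko arrays, against 9.71, 9.79 and 9.70 in the Gb5wt arrays. The groups did not overlap, and the Gb5wt arrays lay within 0.09 of each other. Crh averaged 9.36 ± 0.19 in Gb5ko and 9.73 ± 0.05 in Gb5wt (SD, n = 3 each). The difference was -0.37 ± 0.12 (SE; 95% interval -0.64 to -0.11), with an unadjusted p of 0.011 and a limma adjusted p of 0.25 that did not pass. It ranged from -0.46 to -0.27 when any 1 array was left out, the value nearest 0 being that without Gb5ko replicate 1. Among the Gb5ko arrays, replicate 1 was the lowest for Crh, whereas it was the highest for 7 other genes of the set. Vip, encoding a peptide of cortical interneurons and of the suprachiasmatic nucleus, also had its lowest value on that array, with 9.68, 9.85 and 10.21 in Gb5ko and 10.25, 10.17 and 10.21 in Gb5wt. Other peptide genes went the other way. Of 18 measured outside the set, Vip among them, 7 were highest on that array, against 35.0% of all 18193 genes. These included Sst (12.40), Cck (11.24) and Npy (11.94).

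Trh, encoding the releasing hormone for thyrotropin, read 8.07, 8.03 and 7.68 in the Gb5ko arrays, against 7.64, 7.92 and 7.85 in the Gb5wt arrays. The groups overlapped, with 1 low array in each. The difference was 0.12 ± 0.14 (SE; 95% interval -0.18 to 0.43), with a limma adjusted p of 0.70. It was 0.053 without Gb5ko replicate 1, 0.041 without Gb5wt replicate 4 and 0.25 without Gb5ko replicate 3.

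Gal encodes galanin, made in the hypothalamus, locus coeruleus and other nuclei, and had the largest difference of the set. It read 9.02, 8.36 and 8.05 in the Gb5ko arrays, against 7.86, 8.23 and 7.84 in the Gb5wt arrays. The highest Gb5wt array lay above the lowest Gb5ko array. Gal averaged 8.48 ± 0.49 in Gb5ko and 7.98 ± 0.22 in Gb5wt (SD, n = 3 each), a difference of 0.50 ± 0.23 (SE; 95% interval -0.01 to 1.01) with a limma adjusted p of 0.35. Without Gb5ko replicate 1 it was 0.23 (95% interval -0.14 to 0.60).

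Tac2 encodes neurokinin B, which in arcuate neurons that also make kisspeptin takes part in pacing gonadotropin release. It read 9.96, 9.59 and 9.58 in the Gb5ko arrays, against 9.50, 9.40 and 9.41 in the Gb5wt arrays. The groups did not overlap, with Gb5ko replicate 1 standing above both other Gb5ko arrays. The difference was 0.28 ± 0.12 (SE; 95% interval -0.0037 to 0.56) with a limma adjusted p of 0.35, and 0.15 without Gb5ko replicate 1. Crh, Pmch and Tac2 were thus the 3 of 9 genes whose groups did not overlap, 2 higher and 1 lower in Gb5ko, against 21.5% of all probe sets, 12.5% higher and 8.95% lower.

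**Figure D2:**
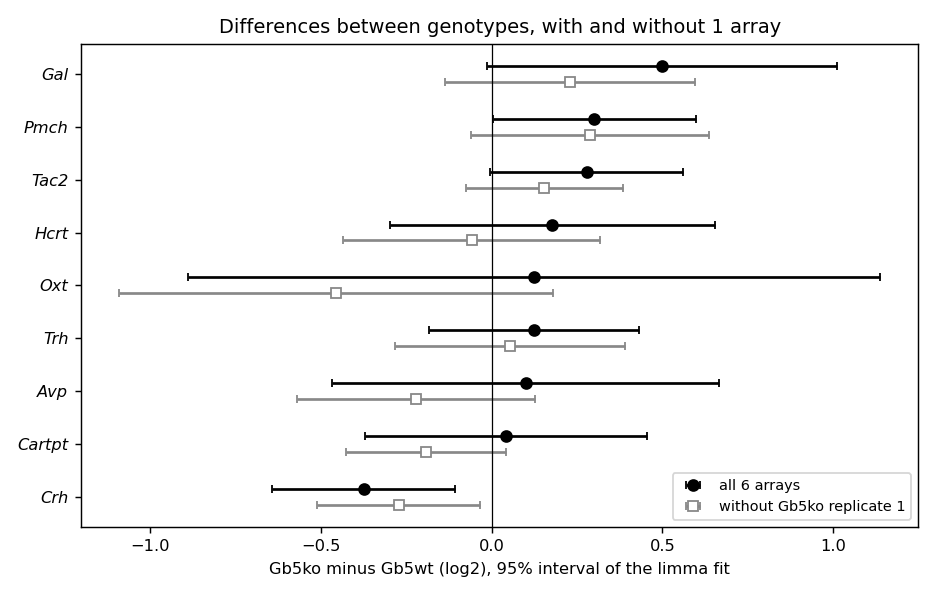
Difference Gb5ko minus Gb5wt on the log2 scale (x axis) for each gene, with the 95% interval of the limma fit, over all 6 arrays (black circles) and without Gb5ko replicate 1 (open squares). Oxt, Avp, Cartpt and Hcrt move from above 0 to below 0 when that array is left out, while Crh stays at -0.27 and Pmch at 0.29.

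The spread between arrays of the same genotype was large for these genes. The pooled SD within a genotype had a median of 0.29 over the 9 genes, against 0.15 over all probe sets, and all 9 lay above the median of probe sets within 0.5 of their own level. Oxt, at 0.81, lay at percentile 99.6 of such probe sets, Gal at 98.7, Avp at 97.8, Cartpt at 96.3 and Hcrt at 96.0. Crh, at percentile 59.1, Trh, at 69.5, Tac2, at 69.6, and Pmch, at 81.8, varied less. The SD was larger in Gb5ko than in Gb5wt for 8 of 9 genes, with medians of 0.41 and 0.20, against 0.14 and 0.13 over all probe sets. Pmch was the exception, at 0.14 in Gb5ko and 0.20 in Gb5wt. This rests on Gb5ko replicate 1: over the other Gb5ko arrays the SD was the larger one in Gb5ko for 2 genes, Crh and Trh, with medians of 0.09 in Gb5ko and 0.20 in Gb5wt. Without that array the pooled SD of the 9 genes had a median of 0.20, against 0.13 over all probe sets.

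**Figure D3:**
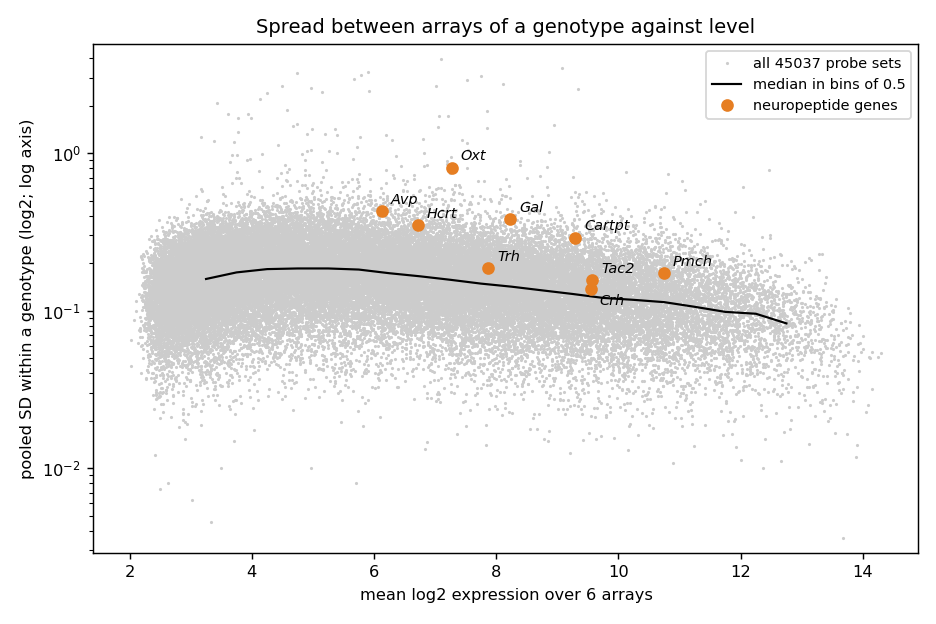
Pooled SD within a genotype (y axis, log2 units on a log axis) against mean log2 expression over the 6 arrays (x axis), for all probe sets in grey, their median in bins of level as a line, and the 9 neuropeptide genes in orange. All 9 lie above the line, Oxt highest at 0.81.

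The sum of squares of each gene over the 6 arrays was divided into a share between the genotypes and a share between arrays of a genotype. The second share holds dissection, animal, RNA handling and hybridisation together, which the labels do not separate. For Oxt 99.1% of the sum of squares lay within genotypes, for Cartpt 99.2%, for Avp 98.0%, for Hcrt 91.2% and for Trh 85.6%. The share between the genotypes was above 50% for 3 genes, Crh with 73.4%, Tac2 with 54.2% and Pmch with 52.8%, and Gal had 39.1%. The median share between genotypes was 14.4% for the 9 genes, against 22.9% for all probe sets. This order rests on single arrays: without Gb5ko replicate 1 the medians were 32.9% and 23.7%, and without Gb5ko replicate 3 they were 41.1% and 29.8%. Without Gb5ko replicate 2, Gb5wt replicate 4 or Gb5wt replicate 5 the median of the 9 genes was 25.8%, 25.8% or 26.2%, against 30.5%, 25.4% or 27.7% for all probe sets. The order of all 6 arrays was kept without Gb5wt replicate 6, at 16.0% against 26.6%. Without Gb5ko replicate 1 the share between the genotypes was 81.7% for Cartpt, 32.9% for Avp, 29.6% for Oxt, 2.62% for Hcrt and 45.4% for Pmch, and most of the sum of squares still lay within genotypes for 6 genes, with Pmch in place of Cartpt.

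**Figure D4:**
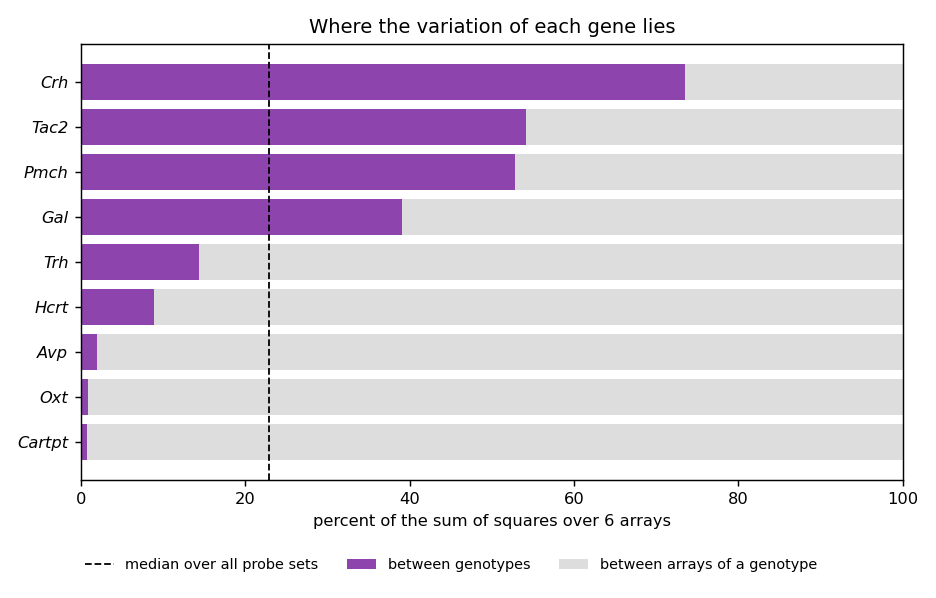
Share of the sum of squares over the 6 arrays, in percent (x axis), that lies between the genotypes (purple) and between arrays of a genotype (grey) for each gene, with the median of all probe sets, 22.9%, as a dashed line. Crh, Tac2, Pmch and Gal lie above that median and the other 5 genes below it.

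Genes that mark the hypothalamus without being peptide precursors were read to see whether the content of that region differed between samples. The list of 37 such genes had 33 measured, of which 0 passed in limma. At an unadjusted p under 0.05, 0 were higher and 2 lower, against 9.89% and 5.68% of all 18193 genes. The lower genes were Fam107b (-0.45) and Lepr, the leptin receptor (-0.29). Gabre, a GABA-A receptor subunit, and Nnat, neuronatin, completed the 4 smallest p values, at 0.23 and 0.36. Gabre was dim, at a mean level of 2.87, and 10 of the 33 had a mean under 5. Otp, a transcription factor needed to form paraventricular and supraoptic neurons, read 8.13, 7.34 and 6.69 in the Gb5ko arrays, against 7.17, 7.17 and 7.09 in the Gb5wt arrays. Its Gb5ko arrays had the order seen for Oxt and Avp. Sim1, a transcription factor of the same neurons, read 5.79, 5.35 and 4.88 in Gb5ko and 5.03, 5.53 and 5.12 in Gb5wt. Calcr, the calcitonin receptor, read 6.50, 5.71 and 5.45 in Gb5ko and 5.73, 5.80 and 6.04 in Gb5wt. Otp, Sim1 and Calcr were picked with their values in view. Gb5ko replicate 1 was the highest of the 6 arrays for 19 of the 33 genes. It was the lowest for some others, among them Fam107b (8.62), Lepr (6.38) and Rax (4.90).

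Over the 23 genes of that list with a mean level of at least 5, the mean deviation from the 6-array mean was 0.33, -0.01 and -0.15 in the Gb5ko arrays and -0.14, -0.04 and -0.00083 in the Gb5wt arrays. Gb5ko replicate 1 was thus the highest for the hypothalamic list, as it was for the neuropeptide genes, whose mean deviations were 0.46, -0.08 and -0.17 in Gb5ko and -0.19, 0.02 and -0.05 in Gb5wt. That array was the highest of the 6 for 7 of the 9 neuropeptide genes and for 19 of the 33 hypothalamic genes, against 35.0% of all 18193 genes.

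With this hypothalamic mean as a covariate, the residual SD fell to 0.20 for Oxt, against 0.81 without the covariate. For Avp it was 0.17 against 0.43, for Cartpt 0.09 against 0.29, for Gal 0.19 against 0.38 and for Crh 0.06 against 0.14. For Hcrt it was 0.32 against 0.35, and for Pmch 0.20 against 0.17. Crh ran opposite to the covariate in the Gb5ko arrays, at 9.15, 9.40 and 9.52 where the hypothalamic mean was 0.33, -0.01 and -0.15. The median residual SD of the 9 genes was 0.17 with the covariate and 0.29 without it, against 0.13 and 0.15 over all probe sets. This fit has 3 residual degrees of freedom, and the covariate rests largely on Gb5ko replicate 1.

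The genotype differences in that fit were below 0 for Oxt (-0.39), Avp (-0.16), Cartpt (-0.14) and Crh (-0.29, 95% interval -0.53 to -0.06), and above 0 for the other 5. Gal was 0.28 ± 0.14 (SE), Pmch 0.28 ± 0.14 and Tac2 0.19 ± 0.11. None of the 9 passed the adjusted threshold (the smallest limma adjusted p was 0.40, for Crh), and 2 had an unadjusted p under 0.05, Crh and Oxt, both lower in Gb5ko, against 10.8% of all probe sets in either direction.

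Pituitary genes varied by array in another way. Gh, the growth hormone gene, read 5.08, 4.67 and 10.6 in the Gb5ko arrays, against 4.70, 4.20 and 6.21 in the Gb5wt arrays, and Cga, the shared subunit of the glycoprotein hormones, read 4.91, 3.31 and 9.32, against 3.12, 4.05 and 6.18. Gb5ko replicate 3 was far the highest for both, whereas it was the lowest of the 6 arrays for Oxt, Avp and Cartpt. Of 15 measured pituitary genes 0 passed. At an unadjusted p under 0.05, 1 was higher and 1 lower, against 9.89% and 5.68% of all 18193 genes. The higher gene was Lhb, for the beta chain of luteinizing hormone, at 0.52. The lower was Pax7, a factor of the intermediate lobe, at -0.54. Prl (0.42) and Pomc (0.28) were next by p. Lhb, Pax7 and Prl were dim, with mean levels of 4.06, 4.59 and 3.53, and 10 of the 15 had a mean under 5. With Gh as a covariate, Gal was 0.69 ± 0.20 (SE; limma adjusted p = 0.25) and Oxt 0.41 ± 0.44. The median residual SD of the 9 genes was 0.30, against 0.15 over all probe sets. This covariate rests largely on Gb5ko replicate 3, and with that array left out Gal was 0.71 and Oxt 0.52. With Eif2s3y as a covariate, the residual SD was 0.60 for Oxt and 0.12 for Pmch, against 0.81 and 0.17 without it. Its median with Eif2s3y was 0.24 over the 9 genes, against 0.14 over all probe sets. Pmch then differed by 0.30 ± 0.11 (SE; unadjusted p = 0.026, limma adjusted p = 0.24) and Oxt by 0.12.

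**Figure D5:**
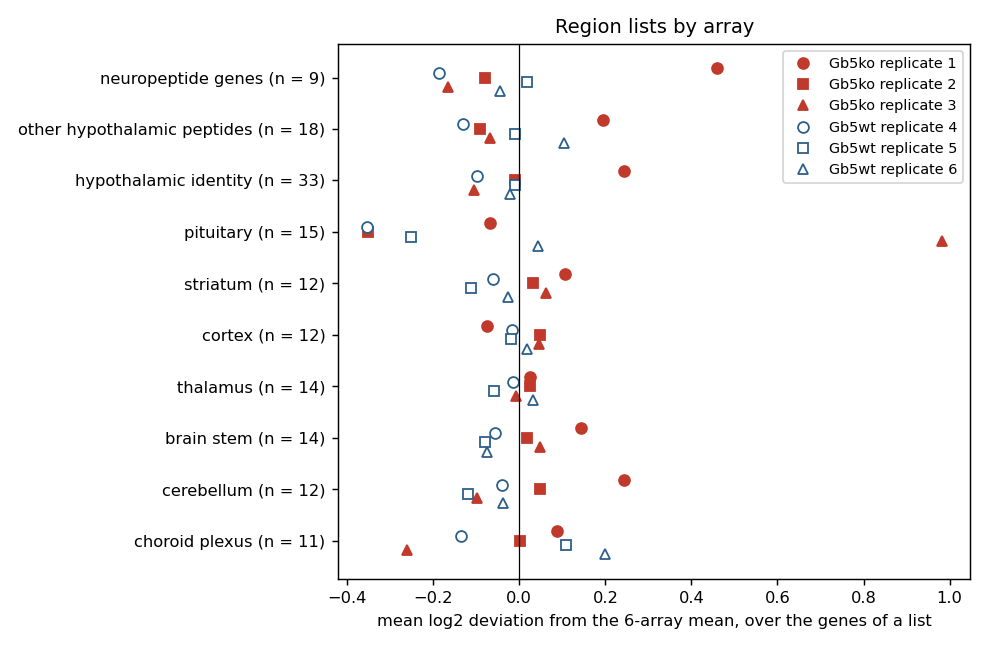
Mean log2 deviation from the 6-array mean (x axis) over the measured genes of each list (rows, with their number), for the 3 Gb5ko arrays (filled red) and the 3 Gb5wt arrays (open blue). Gb5ko replicate 1 lies at 0.46 for the neuropeptide genes and at 0.24 for both the 33 hypothalamic and the 12 cerebellar genes, and Gb5ko replicate 3 lies farthest right for the pituitary list (0.98).

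On Gb5ko replicate 1 the means of other regions lay nearer 0 than the 0.46 of the neuropeptide genes. They were 0.24 for 12 cerebellar genes, 0.14 for 14 genes of the midbrain and hindbrain, 0.11 for 12 striatal genes, 0.09 for 11 choroid plexus genes, 0.03 for 14 thalamic genes and -0.07 for 12 cortical genes. The cerebellar mean was thus above 0 on that array as well. It was the highest array for 6 of the 12 cerebellar genes, against 35.0% of all 18193 genes. Of the 12, 5 had a mean level under 5, and Calb1 was lowest on that array, at 12.11. Cbln1, a secreted synapse organizer of cerebellar granule cells, read 11.3 on Gb5ko replicate 1, 10.90 and 10.78 in the other Gb5ko arrays and 10.64 to 10.75 in Gb5wt. The samples lacked the cerebellum, and the source of the Cbln1 RNA was not tested. In each of these 6 lists, 0 genes passed in limma, and their median differences ran from -0.10 for the choroid plexus to 0.22 for the striatum, against 0.05 over all 18193 genes. The genes with the smallest p were Cbln1 (0.31), the dim Pitx3 (0.39), Pde10a (-0.45), Kl (-0.35), Plekhg1 (-0.36) and Fezf2 (0.39). The part of any region's share of tissue in the neuropeptide values was not tested. The covariate fits cannot separate it from other traits of Gb5ko replicate 1, on which the hypothalamic mean largely rests.

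Among other peptide precursors of hypothalamic neurons, of 24 listed, 18 were measured and 0 passed in limma, with 10 above and 8 below 0 and a median difference of 0.01. Nucb2, the precursor of nesfatin-1, differed by 0.29 (limma adjusted p = 0.30), Vip by -0.30 (0.36), Nmu, neuromedin U, by -0.28 and Pomc by 0.28. Nmu was dim, at a mean level of 3.82. Npy, which is made with AgRP in arcuate neurons but is also abundant in cortical interneurons, differed by 0.01. Ghrh, the growth hormone releasing hormone of arcuate neurons, read 6.75, 5.42 and 5.34 in the Gb5ko arrays, against 4.94, 5.78 and 6.29 in the Gb5wt arrays. It shared with Oxt a high Gb5ko replicate 1 and a low Gb5wt replicate 4.

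Of the 19 listed receptors and binding proteins of these peptides, 17 were measured and 16 had a difference above 0, against 59.9% of all 18193 genes, with a median of 0.16 against 0.05 and 0 passing in limma. At an unadjusted p under 0.05, 3 were higher in Gb5ko and 0 lower, against 9.89% and 5.68% of all genes. Without Gb5ko replicate 1 the median was 0.11, against 0.03 over all genes. At that p, 2 were then higher and 0 lower, against 1032 and 689 of the 18193 genes. Oxtr, the oxytocin receptor, read 9.54, 9.40 and 9.58 in Gb5ko and 9.38, 8.99 and 9.13 in Gb5wt, a difference of 0.34 ± 0.12 (SE; limma adjusted p = 0.28). Its groups did not overlap, as was so for 4 of the 17, against 25.1% of all 18193 genes. The orexin receptor Hcrtr1 differed by 0.39 ± 0.14 (limma adjusted p = 0.28) and Hcrtr2 by 0.26 ± 0.10 (0.31), though Hcrtr2, at 3.51 in Gb5ko and 3.25 in Gb5wt, was dim. Avpr1b, the pituitary vasopressin receptor, was at 3.66 in Gb5ko and 3.41 in Gb5wt, also dim. Of the 17, 9 had a mean level under 5, where the arrays may not read a difference.

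Among 14 measured genes of prohormone processing and secretory granules, 0 passed in limma, with 8 above and 6 below 0 and a median difference of 0.06. Cpe, the carboxypeptidase that trims peptide ends, differed by -0.29 ± 0.10 (SE; limma adjusted p = 0.27), with 13.03, 13.11 and 13.23 in Gb5ko and 13.40, 13.43 and 13.42 in Gb5wt. Chga, the granule protein chromogranin A, differed by 0.38, Vgf by 0.23 and Scg5, the chaperone of the convertase PC2, by 0.17. The groups did not overlap for any of these 4, which were picked by smallest p. Over the whole list this held for 5 of 14 genes, against 25.1% of all 18193 genes.

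The genes whose pattern over the 6 arrays was most like the mean of the 9 neuropeptide genes were sought among 304 genes with an SD over the arrays of at least 0.4. By Pearson's r over 6 arrays they were Fbxl15 (0.99), Gng8 and Cnpy1 (both 0.97), Apoe (0.94) and Akap8l (0.91). The 5 most like Oxt, the gene of largest spread, were Ghrh and Cnpy1 (both 0.93), Tmem212 (0.91), Fbxl15 and Odf3b (both 0.90). These values describe 6 points that share 1 array far from the rest, Gb5ko replicate 1, and the genes were picked for them. Gng8, a G protein gamma subunit, read 7.43, 6.47 and 6.36 in the Gb5ko arrays, against 6.32, 6.45 and 6.39 in the Gb5wt arrays.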

How the data were processed

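RNA of brains lacking the cerebellum was hybridised to Affymetrix arrays, 3 per genotype. The values deposited by the authors are normalized log2 expression, 1 per probe set and array. RMA and Partek are named, without versions, in the submitters' processing notes. RMA corrects background, brings arrays to a common distribution and summarises probes on the log2 scale, which compresses differences of dim probe sets. No detection calls were used here.

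After removal of 64 control probe sets, 45037 were tested, with no filter on level. The test was two-sided, from limma 3.58.1 (lmFit, eBayes; R 4.3.3), with Benjamini-Hochberg adjustment over all 45037 and a threshold of 0.05. It had 4 residual degrees of freedom per probe set and 5.05 from the prior. The number of arrays limits the precision, and the median standard error of a difference was 0.12. Where nothing else is said, a gene outside the set was read through its brightest probe set annotated to 1 gene.

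The members and the gene lists were chosen with earlier results of these data known. The text names every member, up to 4 genes per list with the smallest p, and the 5 genes most like the members in pattern. Any other gene was picked with its values in view. The alternatives were 3 further normalizations, the eBayes prior, array weights, filters, 4 covariates and leaving out each array. No replicate numbers are shared between the genotypes. Gene names and chromosomes come from the platform annotation and the RefSeq table of GRCm38.p6, where Entrez identifiers matched for 9 of 9 members. Figures were drawn with matplotlib 3.10.9.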

Additional observations from a re-analysis of the deposited data

How the results depend on the processing

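No paired analysis was possible because the genotypes share no replicate numbers in the labels. The number of neuropeptide genes passing in limma was 0 of 9 under each alternative run. At an unadjusted p under 0.05 it was 1 to 4, against 9.74% to 19.6% of the probe sets tested in these runs. The 4 came with trend and robust eBayes, where the share of all probe sets was 15.6%. Array weights turned 3 differences below 0, Oxt to -0.31, Cartpt to -0.10 and Avp to -0.11. The hypothalamic covariate turned the same 3, to -0.39, -0.14 and -0.16. With 1 array left out, differences ran from -0.46 to 0.52 for Oxt, -0.22 to 0.29 for Avp, -0.19 to 0.17 for Cartpt and -0.059 to 0.32 for Hcrt, while Crh stayed below 0 and Gal, Pmch, Tac2 and Trh above it. The genes whose groups did not overlap numbered 3 to 5, against 28.7% to 34.1% of all probe sets with 5 arrays. The median share of variation between genotypes was 9.41% for the 9 genes after quantile normalization and 8.53% after cyclic loess. The same median over all probe sets was not computed after these normalizations, and the cause of the change was not tested. With 1 array left out the median share of the 9 genes ran from 16.0% to 41.1%, against 23.7% to 30.5% over all probe sets on the same 5 arrays. All probe sets called numbered 12, against 23 with trend and robust eBayes, 27 with array weights, 20 above a mean level of 5, 4 when each gene had only its brightest probe set and fewer were tested, and 9 to 12 with 1 array left out. Without detection calls, values of dim probe sets may be background.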
